A study of Mus musculus with 60 samples.

Results

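Fast excitatory signalling in the dentate gyrus (DG) runs through ionotropic glutamate receptors, and 35 genes for glutamate receptor subunits and their auxiliary proteins are described here, out of 46480 genes counted. They were taken from a list of AMPA, NMDA, kainate, delta and metabotropic receptor genes and of AMPA and kainate auxiliary subunits. The list was chosen with earlier results of these data known. Each of the 35 matched 1 gene identifier. Of these, 34 had enough counts to be tested, among 17040 tested genes. RNA-Seq was done on tissue punches of dorsal and ventral DG from male C57BL6J mice aged 80 days. After weaning on day 22, mice lived for 8 weeks in standard housing (SH, 3 males from different mothers per cage) or in an enriched environment (EE, 12 males in a larger cage with running wheels and toys that were changed weekly). Each sample pooled tissue of 10 to 12 mice, and each pool gave a dorsal and a ventral sample. There were 4 SH and 5 EE libraries per region, as SH replicate 3 was left out in both regions for its *Xist* counts.

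AMPA receptors carry most of the fast current at excitatory synapses, while NMDA receptors pass calcium when the synapse is active and the membrane is depolarized. Kainate receptors adjust transmitter release and excitability, also at mossy fibers, the axons of dentate granule cells. Metabotropic receptors act through G proteins, and those of group II and III lower transmitter release. Auxiliary subunits (TARPs, encoded by *Cacng* genes, cornichons, Neto and Shisa proteins) bind to AMPA or kainate receptors and set their trafficking and gating.

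The libraries held 22919364 to 28301861 fragments counted on genes, of which values are given in CPM (counts scaled to library size after TMM normalization). The tissue was not sorted, so fewer cells of a type and less RNA per cell cannot be told apart. Marker lists differed between the regions. The 8 granule cell markers, which include *Prox1* and *Calb1*, summed to 1570 to 1815 CPM in the 9 dorsal libraries and to 802 to 1144 CPM in the 9 ventral ones, and 7 of 8 passed the limits given below in favor of dorsal. The 6 mossy cell markers summed to 322 to 436 CPM in dorsal and 630 to 812.5 CPM in ventral DG, with 2 of 6 called for ventral, *Calb2* (log2 fold change of dorsal over ventral -2.42) and *Sv2b* (-0.94), and 4 not called (-0.25 to 0.24). Choroid plexus markers (6 of 6 higher in ventral, 24.0 to 209 against 387 to 1416 CPM) and markers of thalamus and habenula (5 of 6 higher in dorsal, 91.6 to 140 against 30.7 to 43.8 CPM) are markers of tissue outside the DG, and both lists differed between the regions. No marker of oligodendrocytes, their precursors, microglia or endothelium passed the limits, 1 of 6 astrocyte and 3 of 7 interneuron markers were higher in ventral DG, 3 of 4 CA3 markers were higher in dorsal, and those of CA1 (2 higher in dorsal, 3 in ventral, of 5) and CA2 (2 and 2, of 5) were split. No marker was at 0 in all libraries, but some were near it. The lowest of thalamus and habenula, *Pou4f1*, averaged 0.225 CPM, and the lowest of mossy cells, *Csf2rb2*, 0.525 CPM. The part of these differences in the results on region was not tested.

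For promoter sequences 4 members were chosen, on which the largest dorsal (*Grm2*, *Cacng5*) and a ventral (*Grik4*) difference and the change with EE (*Grik3*) fell. Larger ventral differences fell on *Grik1* and *Neto1*, whose promoters are not shown. Of each of the 4, the first promoter sequence listed in RefSeq is shown. Each runs 5′ to 3′ on the strand of the gene, from 250 bases before to 50 bases after its start in RefSeq (GRCm38.p6), and capitals mark CG dinucleotides, the usual site of DNA methylation, which the study assayed in DNA of the same tissue samples and which was not analysed here.
Grm2 (chr9:106656060-106656359, minus strand): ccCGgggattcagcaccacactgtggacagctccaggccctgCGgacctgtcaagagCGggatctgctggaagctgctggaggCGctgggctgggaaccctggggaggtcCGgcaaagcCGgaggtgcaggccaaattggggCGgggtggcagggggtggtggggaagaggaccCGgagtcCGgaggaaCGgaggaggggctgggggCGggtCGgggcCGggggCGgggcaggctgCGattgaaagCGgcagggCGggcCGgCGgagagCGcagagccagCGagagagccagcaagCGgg
Cacng5 (chr11:107915006-107915305, minus strand): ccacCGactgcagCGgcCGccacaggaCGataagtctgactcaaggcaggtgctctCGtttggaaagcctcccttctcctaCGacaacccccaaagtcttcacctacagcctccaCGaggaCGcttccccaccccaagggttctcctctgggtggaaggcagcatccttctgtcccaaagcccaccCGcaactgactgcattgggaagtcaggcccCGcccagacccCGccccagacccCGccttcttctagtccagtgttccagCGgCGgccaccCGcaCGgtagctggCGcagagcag
Grik3 (chr4:125490446-125490745, plus strand): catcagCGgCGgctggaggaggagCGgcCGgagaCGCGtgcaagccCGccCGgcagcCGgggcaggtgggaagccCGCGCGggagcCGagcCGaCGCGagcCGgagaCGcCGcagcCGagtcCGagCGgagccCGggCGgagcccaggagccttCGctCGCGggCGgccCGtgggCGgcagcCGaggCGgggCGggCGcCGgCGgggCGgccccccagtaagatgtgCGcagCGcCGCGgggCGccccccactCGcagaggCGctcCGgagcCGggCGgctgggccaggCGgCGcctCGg
Grik4 (chr9:42944322-42944621, minus strand): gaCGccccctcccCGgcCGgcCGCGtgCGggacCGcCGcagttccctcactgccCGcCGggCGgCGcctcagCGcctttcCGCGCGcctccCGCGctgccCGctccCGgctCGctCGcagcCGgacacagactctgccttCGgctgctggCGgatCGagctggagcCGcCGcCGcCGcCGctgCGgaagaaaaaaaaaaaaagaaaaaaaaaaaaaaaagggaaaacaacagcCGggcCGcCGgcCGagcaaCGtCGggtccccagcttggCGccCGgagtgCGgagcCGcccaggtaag

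Of the genes higher in dorsal DG, *Grm2* held 22 CG dinucleotides (observed-to-expected ratio 0.641), *Cacng5* 17 (0.6) and *Grik3* 50 (1.01), and the ventral-higher *Grik4* held 42 (1.16). The median ratio of all 32851 RefSeq mouse promoters of this length was 0.384, and their median GC content was 52.7%, against 72% (*Grm2*), 63.3% (*Cacng5*), 82% (*Grik3*) and 70% (*Grik4*). Of the 35 members, 22 had a promoter in the RefSeq table (27 promoters). Searched on both strands, the E-box CAGATG stood in 2 of the 27 (*Grin3b*, *Neto2*) and in 17.2% of all promoters, the nuclear receptor motif AGGTCA in 3 (*Cacng8*, *Grin2c*, *Grm8*) and 16.3%, and the cyclic AMP response element TGACGTCA in 0 and 1.79%. None of the 3 stood in the 4 promoters printed.

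Scaled per kilobase of effective transcript length, the highest level belonged to *Cnih2*, a cornichon that assists export of AMPA receptors. Its level was 328 ± 23.8 CPM per kb in dorsal and 319 ± 37.2 in ventral DG (SD, n = 9 libraries each). The AMPA subunits *Gria1* (216 ± 12.4 and 175 ± 13.8) and *Gria2* (185 ± 15.7 and 154 ± 17.6) followed, and their ranges over the 18 libraries overlapped. Next were the group I metabotropic receptor *Grm5* (81.0 ± 5.21 and 82.4 ± 5.81), the obligate NMDA subunit *Grin1* (71.8 ± 3.78 and 53.1 ± 4.96), the TARP *Cacng8* (61.8 ± 3.45 and 48.6 ± 2.90), *Grin2a* (56.8 ± 3.70 and 37.4 ± 2.77) and *Grin2b* (41.3 ± 3.39 and 28.4 ± 3.07). At the low end of the tested members stood *Grm4*, *Grm8* and *Grin2d*, with 80 to 261 fragments per library. Only *Grin3b* was not tested. It had 0 to 4 fragments per library. For *Grin2d* up to 47.9% of the fragments lay on the other strand, against at most 2.60% for any other tested member.

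**Figure D1:**
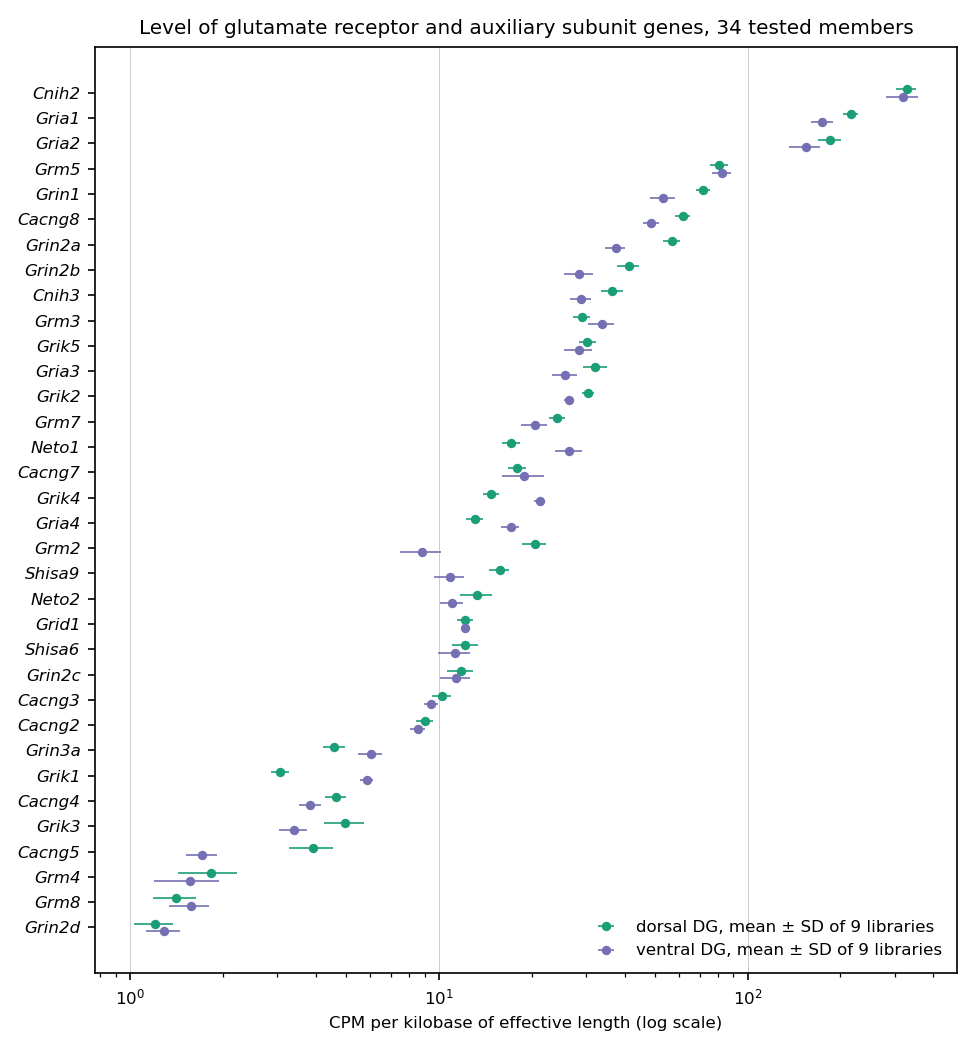
Level of the 34 tested members in CPM per kilobase of effective length (log axis), as the mean ± SD of 9 dorsal (green) and 9 ventral (purple) libraries. *Cnih2*, *Gria1* and *Gria2* stand at the top and *Grin2d* at the bottom.

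A gene was called when its adjusted p (FDR) from edgeR's quasi-likelihood test was under 0.05 and its fold change over 20%. Between regions, 18 of 34 members were called, of which 13 favored dorsal and 5 favored ventral DG. Over all genes tested, 32.7% were called, 15.9% in favor of dorsal and 16.8% in favor of ventral. The median log2 fold change (dorsal over ventral) of the members was 0.16, against -0.0046 for all tested genes, and 23 members passed the FDR alone (58.4% of all genes). All 9 dorsal libraries lay above all 9 ventral ones, or below them, for 15 members (10 above and 5 below). This was so for 18.9% of all genes (9.51% above and 9.44% below). Without EE replicate 2, whose dorsal library was low for several members, 18 members were again called. Of the receptor genes, 11 of 22 were called (7 higher in dorsal, 4 in ventral), and of the auxiliary genes in the list 7 of 12 (6 and 1).

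**Figure D2:**
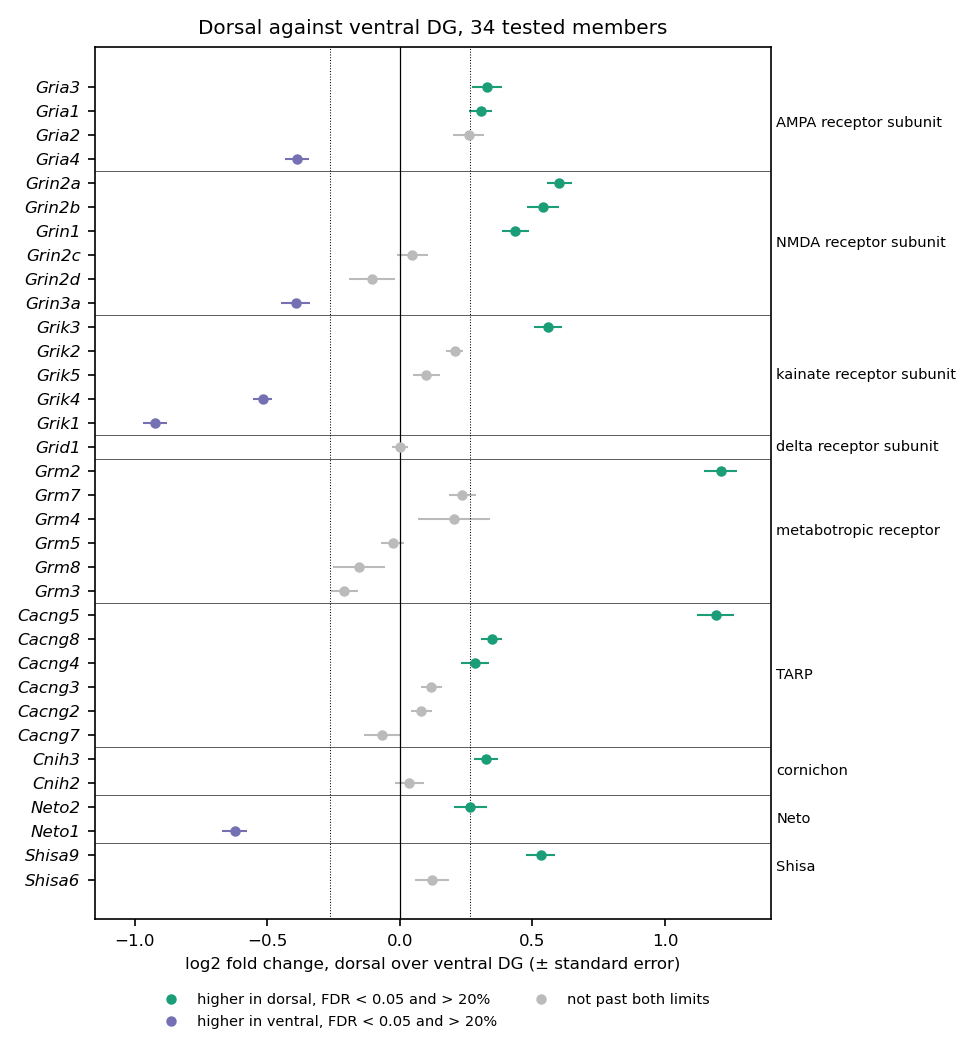
Log2 fold change of dorsal over ventral DG for the 34 tested members, with standard errors, grouped by family. Dotted lines mark a fold change of 20%. *Grm2* and *Cacng5* lie farthest to the dorsal side and *Grik1* and *Neto1* farthest to the ventral side.

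Of the AMPA receptor subunits, *Gria1* and *Gria3* were higher in dorsal DG and *Gria4* in ventral DG. *Gria1*, which is common in principal neurons, had 1136 ± 65.3 CPM in dorsal DG against 919 ± 72.7 CPM in ventral (log2 fold change 0.31, SE 0.043, FDR 2.9e-06), and *Gria3* had 151 ± 13.5 against 120 ± 11.1 CPM (0.33, SE 0.056). *Gria4* had 46.6 ± 3.08 against 60.9 ± 4.08 CPM, with no overlap of the regions (-0.39, SE 0.045, FDR 1.5e-07). *Gria2*, whose edited form makes AMPA receptors impermeable to calcium, passed the FDR (6.1e-04) with a fold change of 1.197 that lay just under the limit (939 ± 79.5 and 784 ± 89.6 CPM). *Gria4* took 2.82% of summed AMPA subunit TPM (abundance scaled for length and library) in dorsal and 4.51% in ventral libraries, without overlap, whereas the shares of *Gria1* (47.3% and 45.9%), *Gria2* (42.5% and 42.6%) and *Gria3* (7.32% and 7.01%) overlapped.

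Among NMDA receptor subunits, *Grin1*, *Grin2a* and *Grin2b* were higher in dorsal DG, and *Grin3a*, a subunit that lowers calcium entry, was higher in ventral DG. *Grin2a*, the GluN2 subunit typical of mature synapses, had 682, 643, 704 and 731 CPM in dorsal SH and 657, 602, 739, 709 and 661 CPM in dorsal EE. In ventral DG it had 409, 454, 500.3 and 490 CPM in SH and 433, 398, 451, 445 and 452 CPM in EE. Every dorsal library was above every ventral one (log2 fold change 0.60, SE 0.046, FDR 2.5e-10). *Grin2b* (0.54, SE 0.060) and *Grin1* (0.44, SE 0.051) also had no overlap, nor did *Grin3a* in the other direction (31.2 ± 2.54 against 41.0 ± 3.71 CPM, -0.39, SE 0.056). *Grin2c* (49.7 ± 4.79 and 48.0 ± 5.37 CPM) and *Grin2d* (4.65 ± 0.657 and 4.98 ± 0.635 CPM) did not pass, with FDR 0.515 and 0.313. The log2 ratio of *Grin2a* to *Grin2b* TPM was 0.718 ± 0.155 in dorsal and 0.710 ± 0.114 in ventral libraries.

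The kainate receptor subunits were split. *Grik1* (GluK1) and *Grik4* (GluK4, a high-affinity subunit) were higher in ventral DG, and *Grik3* (GluK3) in dorsal DG. *Grik1* (chromosome 16, 87895900 to 88290265, GRCm38) had 7.42, 8.35, 7.39 and 8.45 CPM in dorsal SH and 7.33, 7.29, 7.44, 6.89 and 7.59 CPM in dorsal EE. Its ventral values were 13.8, 15.8, 13.8 and 13.8 CPM in SH and 15.3, 14.1, 14.6, 14.3 and 14.5 CPM in EE. All ventral libraries were above all dorsal ones (log2 fold change -0.93, SE 0.045, FDR 9.9e-14), which is 1.90-fold higher in ventral. *Grik4* had 57.7 ± 3.42 against 82.9 ± 3.34 CPM (-0.52, SE 0.036, FDR 4.3e-11), again without overlap.

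*Grik3* (chromosome 4, 125490700 to 125714173) had 50.7, 45.3, 47.7 and 56.5 CPM in dorsal SH and 38.1, 38.9, 41.8, 37.1 and 39.2 CPM in dorsal EE. In ventral DG it had 27.7, 29.0, 35.01 and 34.05 CPM in SH and 29.7, 25.9, 26.3, 31.3 and 30.2 CPM in EE. Every dorsal library was above every ventral one (log2 fold change 0.56, SE 0.053, FDR 7.7e-09), with a fitted difference of 0.67 in SH and 0.44 in EE. *Grik2* passed the FDR (1.2e-05) but not the fold limit (118 ± 5.21 and 103 ± 3.95 CPM), and *Grik5* did not pass (FDR 0.0994). Of summed kainate subunit TPM, *Grik1* took 3.12% in dorsal and 5.82% in ventral libraries, *Grik4* 17.9% and 25.4%, and *Grik3* 6.36% and 4.24%, each without overlap. *Grik2* (35.5% and 30.4%) and *Grik5* (37.1% and 34.1%) overlapped.

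*Grid1*, for a delta receptor subunit that joins synaptic adhesion complexes, had 69.2 ± 4.12 CPM in dorsal DG against 69.4 ± 2.06 CPM in ventral (FDR 0.990). Among metabotropic receptors, *Grm2* was the only one of 6 called. *Grm2*, a group II autoreceptor at mossy fiber terminals (chromosome 9, 106643095 to 106656082), had 79.1, 72.6, 77.8 and 78.1 CPM in dorsal SH and 79.7, 86.2, 94.8, 92.9 and 84.3 CPM in dorsal EE. Its ventral values were 30.8, 31.5, 37.3 and 33.9 CPM in SH and 32.6, 38.6, 30.7, 47.0 and 39.7 CPM in EE. The groups of the regions lay far apart (log2 fold change 1.21, SE 0.063, FDR 2.6e-13), a 2.31-fold difference. The other group II receptor, *Grm3*, which is also made by astrocytes, passed the FDR (0.0011) in the opposite direction but not the fold limit (83.8 ± 5.36 and 97.3 ± 9.30 CPM). The log2 ratio of *Grm2* to *Grm3* TPM was -0.446 in dorsal and -1.92 in ventral libraries, without overlap. *Grm7* passed the FDR alone (4.7e-04, log2 fold change 0.24). *Grm4* (FDR 0.202), *Grm5* (0.597) and *Grm8* (0.185) did not pass.

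Of the TARPs, *Cacng4*, *Cacng5* and *Cacng8* were higher in dorsal DG. *Cacng5* (chromosome 11, 107874605 to 107915055) encodes TARP γ-5, a type II TARP. It had 16.9, 13.9, 15.9 and 15.5 CPM in dorsal SH and 13.2, 14.6, 12.2, 9.54 and 12.6 CPM in dorsal EE. In ventral DG it had 6.85, 6.42, 7.01 and 5.77 CPM in SH and 5.63, 5.07, 6.19, 6.30 and 5.19 CPM in EE. The lowest dorsal library was above the highest ventral one (log2 fold change 1.19, SE 0.072, FDR 3.4e-12). *Cacng8* (TARP γ-8, the main hippocampal TARP) differed by 0.35 (SE 0.040, no overlap) and *Cacng4* by 0.28 (SE 0.052, overlapping). The call of *Cacng4* was lost without EE replicate 1 or SH replicate 1 (log2 fold change 0.26 and 0.25). *Cacng3* passed the FDR alone (0.0171), and *Cacng2* (stargazin, FDR 0.0923) and *Cacng7* (0.429) did not pass. *Cacng8* held 56.6% of summed TARP TPM in dorsal and 52.8% in ventral libraries, and *Cacng5* 3.74% and 1.94%, the only one of 6 TARP shares without overlap.

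Of the cornichon, Neto and Shisa genes, *Cnih3*, *Neto2* and *Shisa9* favored dorsal DG and *Neto1* favored ventral DG. *Neto1*, which binds kainate and NMDA receptors, had 63.3, 55.7, 62.0 and 60.4 CPM in dorsal SH and 59.1, 52.0, 55.7, 53.2 and 58.8 CPM in dorsal EE. Ventral libraries had 91.8, 94.6, 92.7 and 97.2 CPM in SH and 84.5, 74.0, 89.7, 76.2 and 100.4 CPM in EE. No dorsal library reached the lowest ventral one (log2 fold change -0.62, SE 0.049, FDR 3.0e-10). *Neto2* was called in the other direction (0.27, SE 0.061, FDR 8.0e-04), with 53.3 to 80.7 CPM in dorsal and 50.9 to 67.5 CPM in ventral libraries. With the pool as a block its log2 fold change was 0.26 and under the fold limit, as it was without EE replicate 1 or 5 or SH replicate 1 (0.24, 0.26 and 0.25). The call of *Neto2* was also lost with unstranded counts (0.257), with all 20 libraries (0.254) and with only genes of TPM over 1 in at least 3 samples (0.262). The log2 ratio of *Neto1* to *Neto2* TPM was 0.353 in dorsal and 1.25 in ventral libraries, without overlap. *Cnih3* was higher in dorsal DG (89.6 ± 7.21 against 70.9 ± 5.43 CPM, 0.33, SE 0.046) and *Cnih2* did not pass (FDR 0.593). *Shisa9* (CKAMP44, an AMPA receptor partner) had 46.1 ± 3.39 against 31.9 ± 3.56 CPM (0.53, SE 0.055, no overlap), while *Shisa6* did not pass (FDR 0.115).

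**Figure D3:**
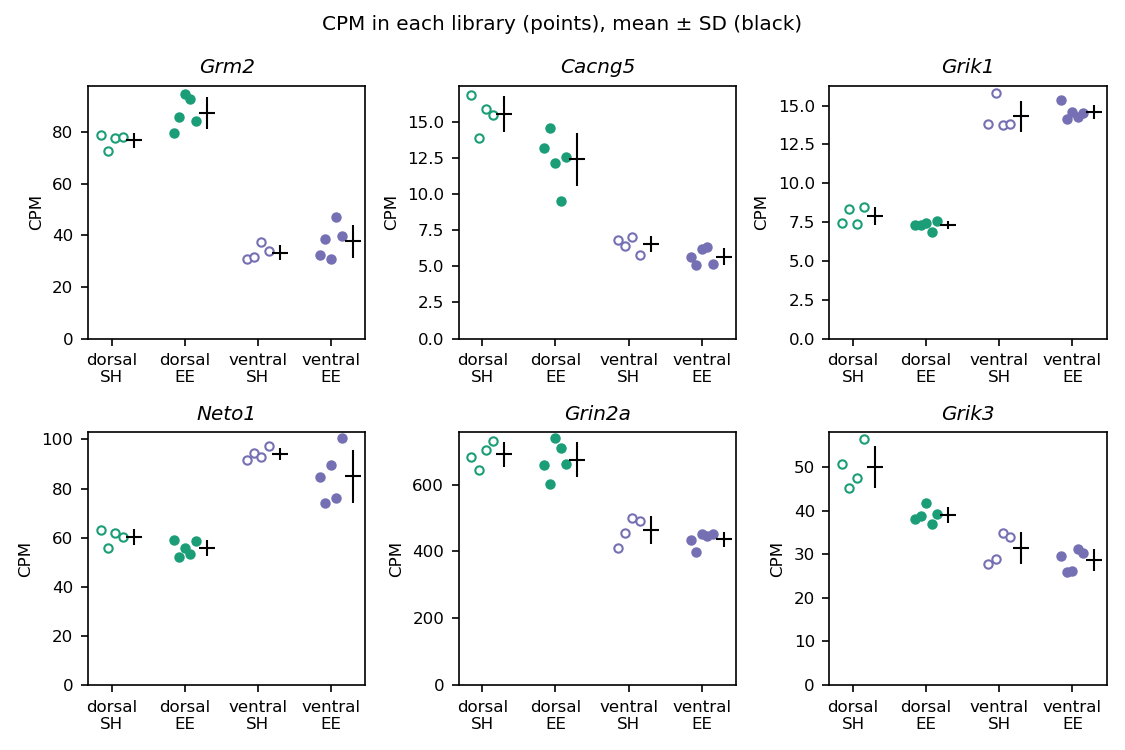
CPM (linear axes from 0) of the 6 members with the largest called log2 fold changes between regions, in each SH and EE library of both regions. Points are libraries (open SH, filled EE) and black marks are the mean ± SD. Dorsal and ventral points do not overlap in any of the 6, and dorsal *Grik3* points of EE lie below those of SH.

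**Figure D4:**
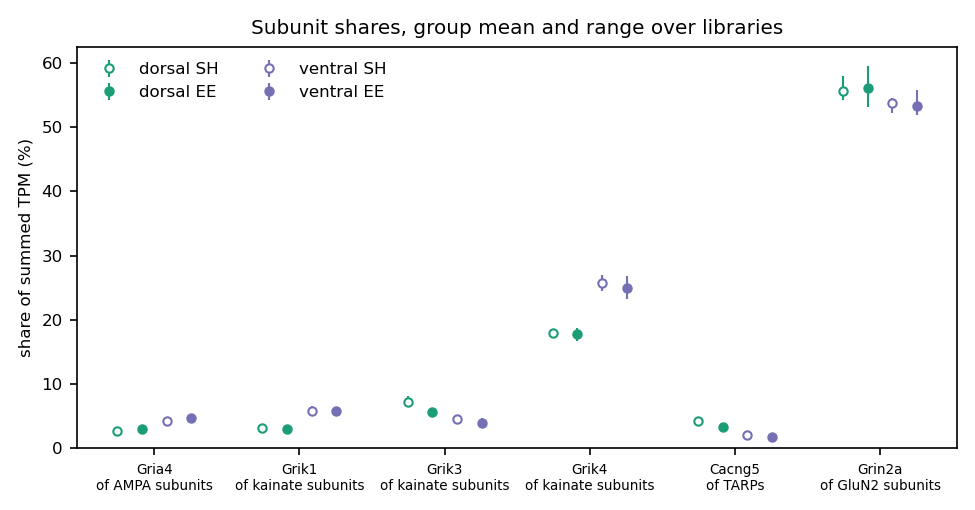
Share of summed TPM (percent) of a subunit within its family, as group mean (point) and range over libraries (line), for dorsal (green) and ventral (purple) SH (open) and EE (filled). The shares of *Gria4*, *Grik1* and *Grik4* were higher in ventral libraries, those of *Grik3* and *Cacng5* in dorsal ones, and that of *Grin2a* overlapped.

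Of other genes of the pathway, 24 for AMPA receptor biogenesis and synaptic partners were tested. Of these, 12 favored dorsal DG and 1 favored ventral, against 15.9% and 16.8% of all tested genes. The largest were *Nptx2*, a secreted pentraxin that clusters AMPA receptors (log2 fold change 1.23, SE 0.070), and *Gsg1l*, an AMPA auxiliary subunit (1.202, SE 0.063). *Nptxr*, the pentraxin receptor, was higher in ventral DG (-0.29, SE 0.046). Of 22 anchoring and trafficking genes, 4 were higher in dorsal DG, led by *Camk2b* (0.54, SE 0.043) and *Dlg3* (0.54, SE 0.066), and 2 in ventral, *Grip1* (-0.48, SE 0.030) and *Homer3* (-0.44, SE 0.036). Of 17 tested genes of glutamate transport and metabolism, 4 were higher in dorsal DG, led by the vesicular transporters *Slc17a8* (0.84, SE 0.086) and *Slc17a6* (0.57, SE 0.177), and 2 in ventral, *Slc1a4* (-0.45, SE 0.033) and *Slc1a3* (-0.27, SE 0.047). *Slc17a6* is also one of the markers of thalamus and habenula. In the list of AMPA receptor biogenesis and partners, *C1ql2* is also a granule cell marker and *Nptx1* a CA3 marker. Whether the shares called in these lists of other genes differ from those of all tested genes was not tested.

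EE was compared with SH within each region. In dorsal DG, 1 of 34 members was called, *Grik3*, which was lower in EE (0.634% of all genes were called, 0.246% lower). All 5 dorsal EE libraries (37.1 to 41.8 CPM) were below all 4 dorsal SH libraries (45.3 to 56.5 CPM), and the log2 fold change was -0.36 (SE 0.073, FDR 0.0158). The call was lost without EE replicate 1 (FDR 0.0554), EE replicate 4 (0.0517) or SH replicate 5 (0.102), with log2 fold changes of -0.35, -0.34 and -0.29. The library of SH replicate 3, which was not in the test, had 43.9 CPM. Granule cell markers summed to 1570 to 1741 CPM in dorsal EE and 1687 to 1815 CPM in dorsal SH, with none of 8 called, and the part of this in the *Grik3* result was not tested. The *Grik3* share of kainate TPM was 5.72% in dorsal EE and 7.16% in dorsal SH.

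*Cacng5* (-0.33, SE 0.093, FDR 0.138) and *Grid1* (-0.13, SE 0.041, FDR 0.206) had the next smallest p-values in dorsal DG and did not pass. *Cacng5* passed without EE replicate 2 (-0.39, FDR 0.0439) and with all 20 libraries (-0.36, FDR 0.0383), so that 2 members were then called. EE and SH libraries of dorsal DG did not overlap for *Grik3* and *Grid1* (EE lower) and for *Grm2* (EE higher, 0.19, SE 0.085, FDR 0.531), 3 of 34 members against 3.99% of all genes (1.78% EE lower, 2.21% EE higher). The median log2 fold change of the members was -0.053, against -0.0034 for all tested genes. Below 0 were 24 of 34 members and 8759 of 17040 tested genes. At an unadjusted p under 0.05 stood 5 members (8.81% of all genes).

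In ventral DG, edgeR called 0 members for EE (0.241% of all genes), as did DESeq2, and 1 member, *Neto1*, had an unadjusted p under 0.05 (7.58% of all genes). The smallest p-values belonged to *Neto1* (-0.15, SE 0.068, FDR 0.644), *Cacng4* (0.15, SE 0.075, FDR 0.658) and *Grm2* (0.18, SE 0.091, FDR 0.684). *Grik3* differed by -0.13 (SE 0.076, FDR 0.739). No member had EE and SH libraries apart (2.45% of all genes). The median of the members was -0.032, against -0.00018 for all genes, and 23 of 34 members and 8532 of 17040 genes were below 0.

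Whether EE acted differently in the 2 regions was tested as an interaction term, which passed the FDR for 0 members (0.00587% of all genes), also with DESeq2, and 2 members had an unadjusted p under 0.05 (3.25% of all genes), *Grik3* (-0.23, SE 0.106, FDR 1.00) and *Cnih3* (0.20, SE 0.092, FDR 1.00). *Cacng4* followed (-0.16, SE 0.104, FDR 1.00). The EE effects on *Grik3* in dorsal and ventral DG were thus not shown to differ, nor to be alike. Among the other genes of the pathway, *Nptx2* rose with EE in dorsal (0.63, SE 0.092, FDR 6.4e-04) and ventral DG (0.90, SE 0.107, FDR 1.2e-04), and *Syndig1*, an AMPA receptor-associated membrane protein, rose in dorsal DG (0.35, SE 0.055, FDR 0.0018). In ventral DG *Syndig1* differed by 0.23 (FDR 0.159). No anchoring or transport gene was called for EE in either region.

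**Figure D5:**
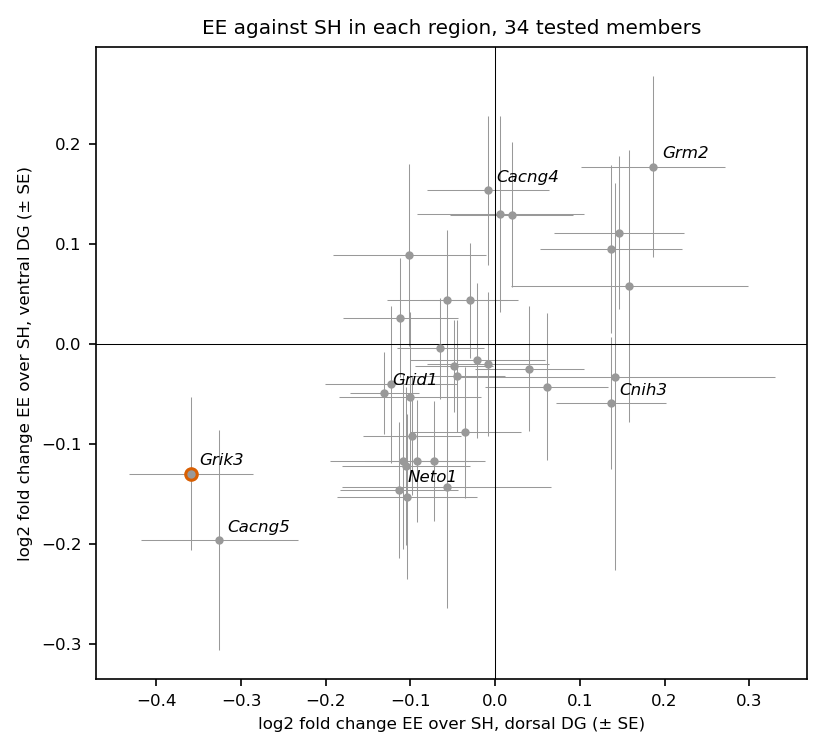
Log2 fold change of EE over SH in dorsal (horizontal) and ventral DG (vertical) for the 34 tested members, with standard errors. *Grik3* (orange), at -0.36 and -0.13, was the only member called, and the other labelled genes had the smallest p-values for EE or the interaction.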

How the data were processed

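RNA-Seq of 20 DG samples was used, and the other 40 samples of the series were not analysed here. Paired 100 bp reads were aligned to mm10 with STAR 2.5.1b after Trim Galore 0.4.0 by the authors, who deposited the count of fragments per gene, unnormalized, for each strand setting. Expected counts, TPM and FPKM, which the authors made with RSEM 1.2.30 per the labels' processing notes, were deposited beside them. TPM is scaled for length and library total, so it was used only for shares and ratios within a library, without a test.

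Counts on the reverse strand (95.5% to 96.5% of stranded fragments) were tested for the 17040 genes that exceeded 10 counts in 2 or more samples. TMM and the quasi-likelihood test of edgeR 4.0.16 (R 4.3.3) were used on 18 libraries in 1 model of 4 groups, with Benjamini-Hochberg adjustment over all tested genes. The region contrast was the mean of the dorsal to ventral differences in SH and EE, and each standard error is the size of the log2 fold change divided by the square root of F. SH replicate 3 was left out because the study excluded an SH sample for *Xist*. This pool had 34.3 (dorsal) and 11.9 CPM (ventral) of *Xist*, against at most 0.652 in the others, here without TMM. The 32 pairs of libraries within groups differed by more than sampling noise (chi-square per degree of freedom 2.95 to 39.5), so each was counted as 1 sample. No batch was given in the labels.

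Dorsal and ventral samples of 1 number were taken to be 1 pool. The study's legend links samples from the same mice but gives no numbers, and SH replicate 3 was the SH number with high *Xist* in both regions. The deviations of dorsal and ventral samples of 1 number from their group means correlated at -0.084 to 0.189 over 9 pools. Those of EE and SH samples of 1 number correlated at 0.0815 to 0.175. Samples of unlike numbers were not compared, so the correlations cannot show whether the pairing holds. The members and the lists of other genes were chosen with earlier results of these data known. All members were named for region, and for EE those called and the 3 of smallest p in each EE test and the interaction. In each list of other genes, the 2 largest called differences in each direction were named. Libraries were listed singly for the 6 largest called region differences and for members called for EE. Alternatives were DESeq2 1.42.0, the likelihood ratio test, RLE size factors, other filters, unstranded and rounded expected counts, all 20 libraries, the replicate block (the pool for region and interaction, the replicate number for EE), a joint test of both housings, separate fits of each region, no fold limit, FPKM shares, and leaving out each pool. The procedure was tested on simulated data. Gene names and coordinates came from Gencode GRCm38, and promoters from RefSeq.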

Additional observations from a re-analysis of the deposited data

Results flagged for a closer look

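In each group of 4 or 5 libraries, the highest or lowest value of a member was compared with the rest by Dixon's test. Of 136 groups 10 stood out, where chance alone gives about 1 in 20. The dorsal library of EE replicate 2 was low for *Gria1* (1008 CPM, others 1117 to 1137), *Gria3* (120 CPM, others 148.6 to 152.6), *Grm5* (359 CPM, others 407.6 to 426.1) and *Neto2* (53.3 CPM, others 70.9 to 78.0). The ventral library of EE replicate 2 was low for *Gria4* (51.6 CPM, others 61.6 to 64.8) and high for *Grm3* (120 CPM, others 89.5 to 97.1). Dorsal EE replicate 4 was low for *Grid1* (60.5 CPM, others 67.3 to 68.6). Ventral EE replicate 5 was high for *Grin2d* (6.15 CPM, others 4.21 to 4.62), ventral SH replicate 2 was high for *Grik1* (15.8 CPM, others 13.78 to 13.84) and ventral SH replicate 1 was low for *Cacng3* (18.7 CPM, others 20.4 to 20.6). In the dorsal library of EE replicate 2, granule cell markers summed to 1570 CPM, the lowest of the 9 dorsal libraries, and oligodendrocyte markers to 2833 CPM, the highest of them. The dorsal library of EE replicate 1 had sums of 1588 and 2807 CPM. It held 1126 CPM of *Gria1*, 152.6 of *Gria3*, 409 of *Grm5* and 78.0 of *Neto2*. The part of the marker differences in the low values of EE replicate 2 was not tested.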

How the results depend on the processing

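Of 643 values of members between regions under other settings, 616 kept their direction and side of the limits. The sign of *Grid1*, near 0, turned to -0.000655 (DESeq2), -0.00090 (RLE size factors), -0.0052 (expected counts), -0.0035 (TPM filter), -0.0012 (all 20 libraries), -0.00013 (no filter) and -0.0081 (unstranded counts), and ranged from -0.012 to 0.020 without a pool. The others that moved were *Gria2* (called without EE replicate 4 or 5 or SH replicate 2, 4 or 5), *Grm4* (past both limits without SH replicate 1), *Cacng4* and *Neto2* (calls lost). The number of members called between regions was 16 to 19 when a pool was left out, and 23 with no fold limit. Of 168 values for EE and the interaction, 163 stayed as they were and 0 changed sign, the others being those of *Grik3* and *Cacng5* in dorsal DG given above. All 48 values of shares and ratios stayed within their spread, which says little of how firm they are. Those from FPKM could not move, as TPM is FPKM rescaled by 1 constant in each library. Those with all 20 libraries only added the libraries of SH replicate 3. Members called for EE in dorsal DG numbered 2 with all 20 libraries and 0 to 2 without a pool.

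Of all genes, 5573 were called between regions. The TPM filter, under which fewer genes were tested, left 3448 (1642 and 1806), and no fold limit gave 9949 (4949 and 5000). For EE in dorsal DG, 108 genes were called (66 higher, 42 lower), against 181 by the likelihood ratio test (109 and 72), 172 with the replicate block (107 and 65) and 70 to 109 without a pool (41 to 65 higher, 25 to 44 lower). For EE in ventral DG, 41 were called (31 and 10), against 76 by DESeq2 (60 and 16), 87 by the likelihood ratio test (67 and 20), 78 with no filter (60 and 18), 87 with the block (69 and 18), 26 with the TPM filter (4 lower), 25 in a separate fit (3 lower) and 18 to 50 without a pool (17 to 38 higher, 1 to 12 lower). The interaction had 1 gene, 0 with the TPM filter or without any pool, and 2 with the block. Apart from the fold limit, the cause of these differences was not tested. EE and SH samples are linked in the labels only by a replicate number (correlations of deviations 0.0815 to 0.175), which the main fit left out. The block changed no call of a member other than *Neto2* between regions. With 80 to 261 fragments per library, the region differences of *Grin2d*, *Grm4* and *Grm8* had standard errors of 0.086, 0.135 and 0.098 (log2), the largest of the 34 tested members.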
